A study of Mus musculus with 8 samples.

Results

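The endogenous opioid system was followed here through 7 genes, the precursors Pdyn, Penk and Pnoc and the receptors Oprm1, Oprk1, Oprd1 and Oprl1, in neurons of 3 hypothalamic nuclei. The genes were found by the gene name that the array design gives each spot, which returned 12 probes on 21 spots for all 7 genes, among 27424 genes that were tested. Neurons of the dorsomedial nucleus (DMH, n = 3 samples), the ventromedial nucleus (VMH, n = 3) and the arcuate nucleus (Arc, n = 2) were cut from the brain by laser microdissection and pooled, and each sample was hybridised to its own 1-colour array. All mice were females, 2 months old, and all carried the Nkx2-1-CreERT2 driver together with a Rosa-ZsGreen reporter that tamoxifen switches on, so that every sample holds cells in which the Nkx2-1 gene was active when tamoxifen was given. The driver acts in the Nkx2-1 lineage of all 3 nuclei, and samples of unlabelled cells were not analysed here. The labels do not tie samples to animals, so the p-values reflect no more than the spread among samples, part of which may be technical.

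Opioid peptides are cut from larger precursor proteins by proprotein convertases in secretory vesicles. Prodynorphin (Pdyn) gives rise to the dynorphins and neoendorphins, which prefer the kappa receptor encoded by Oprk1. Proenkephalin (Penk) gives rise to the enkephalins, which act on the delta and mu receptors encoded by Oprd1 and Oprm1, and prepronociceptin (Pnoc) gives rise to nociceptin, the ligand of Oprl1. All of these receptors couple to inhibitory G proteins, lower cyclic AMP, open inwardly rectifying potassium channels and close voltage-gated calcium channels. In the hypothalamus they take part in the control of feeding, stress responses, water balance and reproduction, and dynorphin is one of the peptides of the kisspeptin neurons of the arcuate nucleus.

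The sequences of 3 probes are shown because the results for Pdyn and Oprm1 differed between probes, a difference whose cause was not tested. Each is written in the sense of the transcript, from the array design, with positions in mm9. The Pdyn probe A_66_P123898 (chr2:129513968-129514027, minus strand) lies in the coding part, and its capitals mark the 15 bases that encode the Leu-enkephalin core with which the opioid peptides of this precursor begin. The Oprm1 probe A_51_P100309 (chr10:3516154-3516213, minus strand) also lies in the coding part, and its capitals mark 15 bases that encode a motif of the last transmembrane helix conserved among rhodopsin-like receptors. The Oprm1 probe A_55_P2025443 (chr10:3308332-3308391, minus strand) ends in a simple repeat of 40 bases, of which the first 20 are shown in capitals after the 10 bases before them.
Pdyn A_66_P123898: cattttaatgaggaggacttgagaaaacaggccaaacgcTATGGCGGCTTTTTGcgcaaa
Oprm1 A_51_P100309: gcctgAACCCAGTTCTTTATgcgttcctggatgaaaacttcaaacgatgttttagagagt
Oprm1 A_55_P2025443: tagatgctaaACACACACACACACACACAC

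Levels are given as the log2 processed signal of a probe minus the 75th percentile of its array, so that 0 is the signal of that percentile and 1 unit is a doubling. A probe's level depends on its own sequence, so levels were compared between nuclei for the same probe and not between genes. On each array 72.4% to 78.7% of the 55681 probes gave a signal well above background, and the 75th percentile of the signal lay between 2107 and 3042 in DMH, 1866 and 2036 in VMH, and 1806 and 1818 in Arc. All markers of the DMH list (7 of 7, among them Ppp1r17 and Prdm13) were higher in DMH than in VMH, all markers of the VMH list (7 of 7, among them Nr5a1 and Fezf1) were lower in DMH than in VMH, and all markers of the Arc list (7 of 7, among them Agrp and Kiss1) were lower in VMH than in Arc at an adjusted p under 0.05 in limma. Against Arc, 5 of the 7 DMH markers were higher in DMH and 5 of the 7 VMH markers were higher in VMH. Of the Arc markers, 5 of 7 were lower in DMH than in Arc. Nr5a1 did not pass for VMH against Arc (adjusted p of 0.123 in limma). Of all genes, 0.441% were called higher and 0.788% lower in DMH than in VMH. Fezf1 was well above background on 0 of 3 DMH and 0 of 2 Arc arrays, and Prdm13 on 0 of 3 VMH arrays. Such probes were kept through the nucleus where they are high, so the counts do not test the identity of the samples. Lower signal in such pooled tissue can come from fewer cells that express a gene or from less RNA per cell, which cannot be told apart.

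Of the 7 genes, Pdyn passed the test for DMH against VMH, and none passed between either of these nuclei and Arc. With 1 of 7 genes higher in DMH, the count stands beside 0.441% of all genes called higher in DMH than in VMH, and the 0 of 7 lower stands beside 0.788%. In the other comparisons 0.419% of all genes were called in either direction in DMH against Arc and 0.977% in VMH against Arc. At an unadjusted p under 0.05, limma gave 4 of 7 genes for DMH against VMH, 4 of 7 for DMH against Arc and 2 of 7 for VMH against Arc, beside 13.2%, 16.6% and 14.2% of all genes. Among the 4 genes for DMH against Arc was Oprm1, read by a probe with a simple repeat, and with repeat probes left out, so that the coding probe stood for Oprm1, the counts were 5, 3 and 2 of 7. All probes of the 7 genes were well above background on all 8 arrays, except the Oprd1 probe, which was not on 1 DMH array. No spot of these genes was saturated or marked as an outlier.

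**Figure D1:**
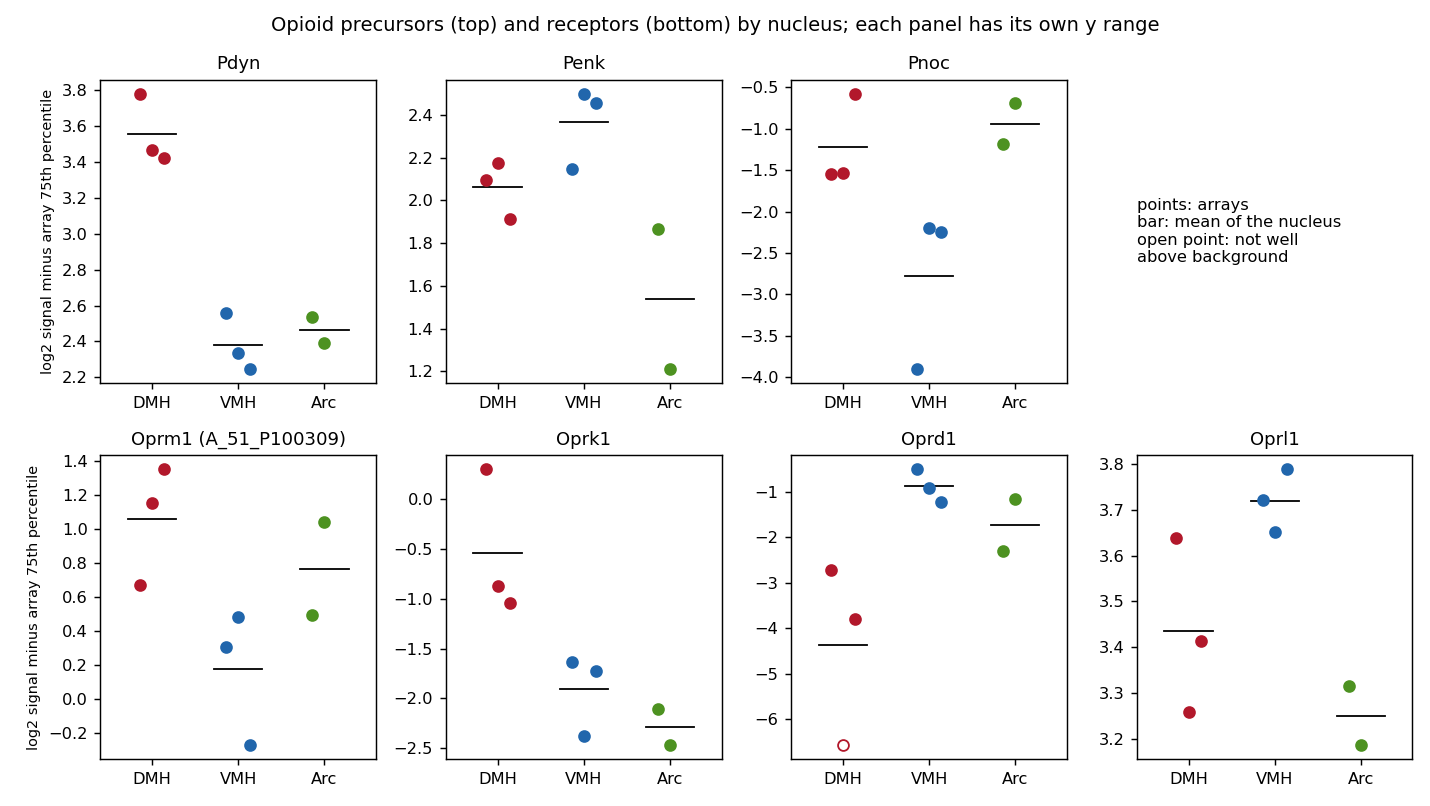
Log2 signal minus the array's 75th percentile (y axis) of each precursor and receptor in DMH, VMH and Arc (x axis), with a point per array, a bar for the mean of the nucleus and an open point for a signal not well above background. Oprm1 is shown by its coding probe A_51_P100309. The 3 DMH arrays lie above all VMH and Arc arrays for Pdyn and Oprk1 and below them for Oprd1.

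Pdyn, the precursor of the dynorphins, was higher in DMH than in VMH by a little over 1 log2 unit. Its brighter probe (A_52_P586928, chr2:129512323-129512382 in mm9, minus strand) read 3.78, 3.47 and 3.42 in DMH replicates 1, 2 and 3, against 2.56, 2.34 and 2.24 in VMH and 2.54 and 2.39 in Arc. All DMH arrays lay above all VMH and Arc arrays, while VMH and Arc overlapped. The difference between DMH and VMH was 1.18 ± 0.19 on the log2 scale (SE), or 2.26-fold, with an adjusted p of 0.037 in limma and a 95% interval of 0.73 to 1.62. Against Arc, the DMH level was higher by 1.09 ± 0.22 (SE) with an adjusted p of 0.0926 in limma, so that this difference did not pass, and VMH minus Arc was -0.08 ± 0.22 with an adjusted p of 0.905. The limma F test over the 3 nuclei gave an adjusted p of 0.0433, and 1.72% of all genes passed that test. The call for DMH against VMH rested on the full set of arrays: without any 1 of the 8 arrays the difference stayed between 1.06 and 1.27, but the adjusted p in limma ranged from 0.0538 to 0.141.

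The other Pdyn probe, A_66_P123898, which reads the coding stretch with the opioid core shown above, was also highest in DMH, with a wider spread, and its mean was lower in Arc than in VMH. It read 1.68, 2.58 and 2.25 in DMH, against 0.19, 1.22 and -1.17 in VMH and -0.99 and 0.09 in Arc. Again all DMH arrays lay above all others, and VMH and Arc overlapped. DMH minus VMH was 2.09 ± 0.60 (SE), with an adjusted p of 0.194 over all kept probes in limma, and DMH minus Arc was 2.62 ± 0.67, with an adjusted p of 0.150. In the fit of single probes, A_52_P586928 had an adjusted p of 0.0475 for DMH against VMH and of 0.055 in the F test. The probes therefore gave 2.26-fold and 4.26-fold for the same gene, and the mean of both probes differed by 1.63 with an adjusted p of 0.060.

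**Figure D2:**
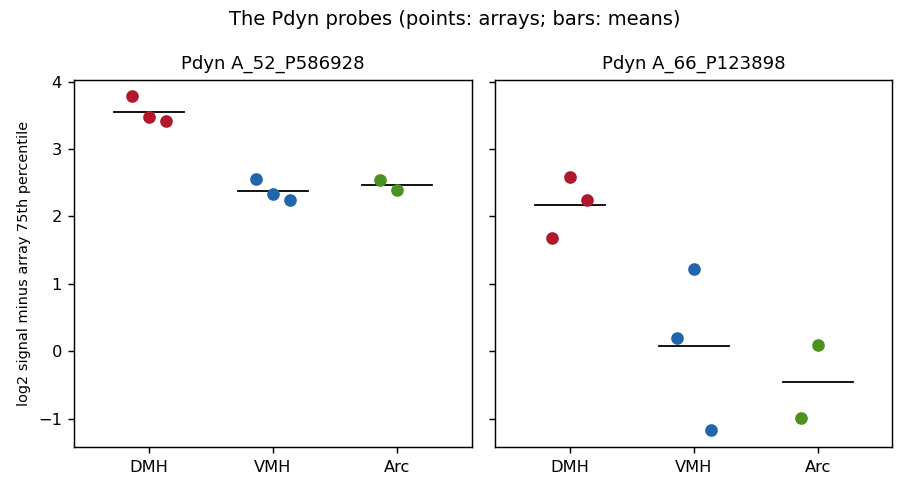
Log2 signal minus the array's 75th percentile (y axis) of the 2 Pdyn probes in DMH, VMH and Arc (x axis), with a point per array and a bar for the mean. On both probes every DMH array lies above every VMH and Arc array, and the VMH arrays spread between -1.17 and 1.22 on A_66_P123898.

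Dynorphin is also made outside the DMH, among others by the orexin neurons of the neighbouring lateral hypothalamus, so the markers of that region are set beside Pdyn. Hcrt, the orexin precursor, read -1.14, -0.94 and -0.81 in DMH, -0.94, -1.16 and -0.68 in VMH and -0.88 and -0.61 in Arc, with an adjusted p of 0.960 in limma for DMH against VMH. Qrfp read -1.77, -0.20 and -1.18 in DMH, -2.78, -2.48 and -2.75 in VMH and -4.12 and -3.82 in Arc, and its DMH minus Arc difference of 2.92 passed at an adjusted p of 0.0415, with 1 of the 2 Arc arrays well above background. Pmch, the precursor of melanin-concentrating hormone, read 1.59 in DMH replicate 1, against -1.13 and -3.03 in the other DMH arrays. It read -3.38, -3.71 and -2.47 in VMH and -4.26 and 0.72 in Arc, where Arc replicate 1 was not well above background. The summed level of the 5 markers of that region ranged from 4.75 to 5.08 in DMH, 4.39 to 5.34 in VMH and 2.29 to 2.98 in Arc, with 4 of the 5 kept for the test and 2 well above background on all arrays. In DMH and VMH most of that sum was Nptx2, which read 4.91, 4.81 and 4.69 in DMH, 5.31, 4.34 and 4.77 in VMH and 2.84 and 1.25 in Arc, so that there the sum says little of Qrfp and Pmch. The summed level of 8 astrocyte markers ranged from 3.89 to 4.03 in DMH, 3.29 to 3.81 in VMH and 3.17 to 3.51 in Arc, and 0 of the 7 that were tested passed in limma for DMH against VMH, with 2 at an unadjusted p under 0.05. Markers of other cells also gave signal, and the share of such cells in the samples was not tested. The sum of 8 oligodendrocyte markers ranged from 3.87 to 4.35 in DMH, 4.23 to 4.84 in VMH and 3.14 to 4.13 in Arc. For 7 microglia markers the ranges were 4.44 to 4.79, 4.64 to 4.79 and 4.93 to 5.07. For 7 tanycyte and ependymal markers they were 0.50 to 1.03, 1.57 to 1.87 and 2.20 to 2.27. Hcrtr2, an orexin receptor, was well above background on 2 of the 8 arrays. The part of these markers in the Pdyn difference was not tested.

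Penk, the precursor of the enkephalins, was measured at similar levels in DMH and VMH. Its probe (A_55_P2035946, chr4:4060724-4060783, minus strand) read 2.10, 2.17 and 1.91 in DMH, 2.15, 2.50 and 2.45 in VMH and 1.86 and 1.21 in Arc. The DMH and VMH arrays overlapped, and both Arc arrays lay below all others. The difference of DMH minus VMH was -0.30 ± 0.23 (SE), with an adjusted p of 0.609 in limma and a 95% interval of -0.84 to 0.23. VMH minus Arc was 0.83 ± 0.26 (SE), with an adjusted p of 0.219, and DMH minus Arc was 0.52 ± 0.26, with an adjusted p of 0.358. Both values moved with the Arc array that was left out: VMH minus Arc was 1.16 without Arc replicate 1 and 0.50 without Arc replicate 2, and DMH minus Arc was 0.85 and 0.20.

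Pnoc, the precursor of nociceptin, was dimmest in VMH, where its arrays also spread most. Its probe (A_51_P450469, chr14:66020505-66020564, minus strand) read -1.55, -1.54 and -0.57 in DMH, -3.90, -2.19 and -2.24 in VMH and -1.19 and -0.69 in Arc. All VMH arrays lay below all DMH and Arc arrays, which overlapped with each other. DMH minus VMH was 1.56 ± 0.50 (SE), with an adjusted p of 0.235 in limma, and VMH minus Arc was -1.84 ± 0.56, with an adjusted p of 0.209, so neither difference passed. Without VMH replicate 1, the dimmest array, they were 1.00 and -1.28.
The GABAergic markers Gad1, Gad2 and Slc32a1 also had their lowest means in VMH. Gad1, which makes GABA from glutamate, read 2.33, 0.58 and 0.02 in DMH, -5.13, -2.84 and -4.46 in VMH and 1.31 and 1.12 in Arc, with 1 of the 3 VMH arrays well above background. DMH minus VMH passed for Gad1 (5.12, adjusted p of 0.0209), Gad2 (3.84, adjusted p of 0.00268) and the vesicular transporter Slc32a1 (2.36, adjusted p of 0.044), and the summed level of the list with the vesicular glutamate transporters ranged from 3.00 to 3.89 in DMH, 1.09 to 1.68 in VMH and 3.41 to 3.59 in Arc. In the same list the glutamate transporter Slc17a6 went the other way, with its highest mean in VMH. It read 1.05, 0.72 and 0.43 in VMH, 0.87, 0.14 and -0.12 in DMH and -2.16 and -2.23 in Arc. The part of these markers in the Pnoc values was not tested.

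Among the receptors, none passed the test in any pair of nuclei. Oprk1, the kappa receptor and the main target of dynorphin, had its highest levels in DMH. Its probe (A_51_P377528, chr1:5592825-5592884, plus strand) read 0.30, -0.87 and -1.04 in DMH, -1.63, -2.38 and -1.73 in VMH and -2.11 and -2.47 in Arc. All DMH arrays lay above all other arrays, with DMH replicate 1 highest, and VMH and Arc overlapped. The difference of DMH minus VMH was 1.37 ± 0.39 (SE), or 2.59-fold, with an adjusted p of 0.174 in limma and a 95% interval of 0.47 to 2.27. DMH minus Arc was 1.75 ± 0.43 (SE), with an adjusted p of 0.132. DMH replicate 1, the brightest array of the slide by its 75th percentile, was also the highest for Pdyn on A_52_P586928. On the other Pdyn probe, A_66_P123898, it was the lowest DMH array, at 1.68 against 2.58 and 2.25. All DMH arrays had a higher 75th percentile (2107 to 3042) than all VMH and Arc arrays (1806 to 2036). The part of array brightness and of the markers given beside Pdyn in the Oprk1 values was not tested.

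Oprd1, the delta receptor, had the widest spread. Its probe (A_55_P2186170, chr4:131666647-131666706, minus strand) read -2.71, -6.57 and -3.80 in DMH, -0.50, -0.90 and -1.22 in VMH and -2.29 and -1.15 in Arc. The DMH value of -6.57 came from a spot with a processed signal of 24.3 that was not well above background, so 2 of 3 DMH arrays measured the gene, and all DMH arrays lay below all others. DMH minus VMH was -3.49 ± 0.89 (SE), with an adjusted p of 0.137 in limma, and DMH minus Arc was -2.64 ± 0.99, with an adjusted p of 0.244. Without DMH replicate 2, the array of the dim spot, these differences were -2.38 and -1.53, and without DMH replicate 1 they were -4.31 and -3.46. With a floor at the lowest signal well above background on each array the DMH minus VMH difference was -2.77 with an adjusted p of 0.0337, and with the normexp background correction it was -1.82 with an adjusted p of 0.0207, so the call for this dim probe depended on how signals near the background were treated. VMH and Arc overlapped, with a difference of 0.85 ± 0.99 (SE) and an adjusted p of 0.760.

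Oprl1, the nociceptin receptor, had the closest means of the 3 nuclei among the gene-level probes. Its brighter probe (A_55_P2066593, chr2:181455616-181455675, plus strand) read 3.64, 3.26 and 3.41 in DMH, 3.72, 3.65 and 3.79 in VMH and 3.31 and 3.19 in Arc. All VMH arrays lay above all DMH and Arc arrays, and DMH and Arc overlapped. The difference of DMH minus VMH was -0.28 ± 0.18 (SE), with an adjusted p of 0.543 in limma and a 95% interval of -0.71 to 0.14, and VMH minus Arc was 0.47 ± 0.20, with an adjusted p of 0.353. The other probe, A_55_P2066598 (chr2:181453983-181454042, plus strand), read 2.94, 3.35 and 2.98 in DMH, 3.60, 3.21 and 3.40 in VMH and 1.91 and 2.87 in Arc. On it VMH minus Arc was 1.01 ± 0.32 (SE), with an adjusted p of 0.241 over all kept probes, and it was 0.53 without Arc replicate 1 and 1.49 without Arc replicate 2.

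Oprm1, the mu receptor, was read by 4 probes, and they did not give the same order of nuclei. By the rule that the brightest probe stands for a gene, Oprm1 was represented by A_55_P2025443, the probe that ends in the repeat shown above. This probe read 6.76, 7.19 and 7.10 in DMH, 7.27, 7.50 and 7.63 in VMH and 7.78 and 7.70 in Arc, and DMH minus VMH was -0.45 ± 0.20 (SE), with an adjusted p of 0.389 in limma. On the array, 88 probes held a run of at least 20 bases of a repeated base or base pair, and their median level was 7.18, against -2.03 for the 55593 other probes. Of the probes with a run, 92.0% were among the brightest 1% of all probes, against 0.856% of the others, and the Oprm1 repeat probe was the 65th brightest. Its values are therefore given as those of a repeat probe and not as the level of Oprm1.

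**Figure D3:**
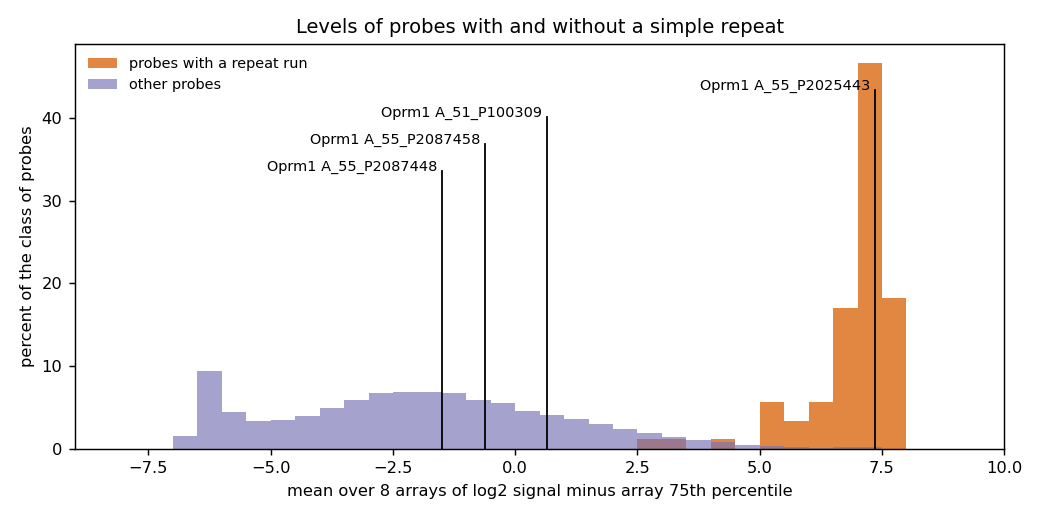
Distribution of probe levels (x axis, mean over 8 arrays of the log2 signal minus the array's 75th percentile; y axis, percent of each class of probes in bins of 0.5) for the 88 probes with a repeat run and the 55593 other probes, with lines at the 4 Oprm1 probes. The repeat probe of Oprm1 lies within the peak of the probes with a run, and the other Oprm1 probes lie within the range of the other probes.

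The coding probe of Oprm1, A_51_P100309, was printed as 10 spots on each array, whose SD was between 0.0594 and 0.127 on the log2 scale. It read 0.67, 1.16 and 1.35 in DMH, 0.31, 0.49 and -0.27 in VMH and 0.49 and 1.04 in Arc. All DMH arrays lay above all VMH arrays, and Arc overlapped with DMH and lay just above VMH. DMH minus VMH was 0.89 ± 0.30 (SE), or 1.85-fold, opposite in sign to the repeat probe, with an adjusted p of 0.270 over all kept probes in limma, and DMH minus Arc was 0.29 ± 0.33, with an adjusted p of 0.713. The spread between arrays of a nucleus (SD of 0.35 in DMH and 0.40 in VMH) was larger than the spread between spots.
The remaining Oprm1 probes are assigned to other transcripts of the gene and lie upstream of the coding probe, while the repeat probe lies downstream of it. A_55_P2087458 (chr10:3551689-3551748) read -0.08, -0.71 and 0.12 in DMH, -1.43, -0.31 and -1.13 in VMH and -0.31 and -1.12 in Arc, with a DMH minus VMH difference of 0.73 ± 0.38 (SE) and an adjusted p of 0.469. A_55_P2087448 (chr10:3555486-3555545) read -1.45, -1.74 and -1.41 in DMH, -1.57, -1.92 and -1.48 in VMH and -1.50 and -0.89 in Arc, with a difference of 0.12 ± 0.24 and an adjusted p of 0.866. The arrays of DMH and VMH overlapped on both. Over the 12 probes of the 7 genes, 1 passed for DMH against VMH, beside 0.984% of all kept probes, and 0 passed for DMH against Arc and VMH against Arc, beside 0.434% and 0.791%.

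**Figure D4:**
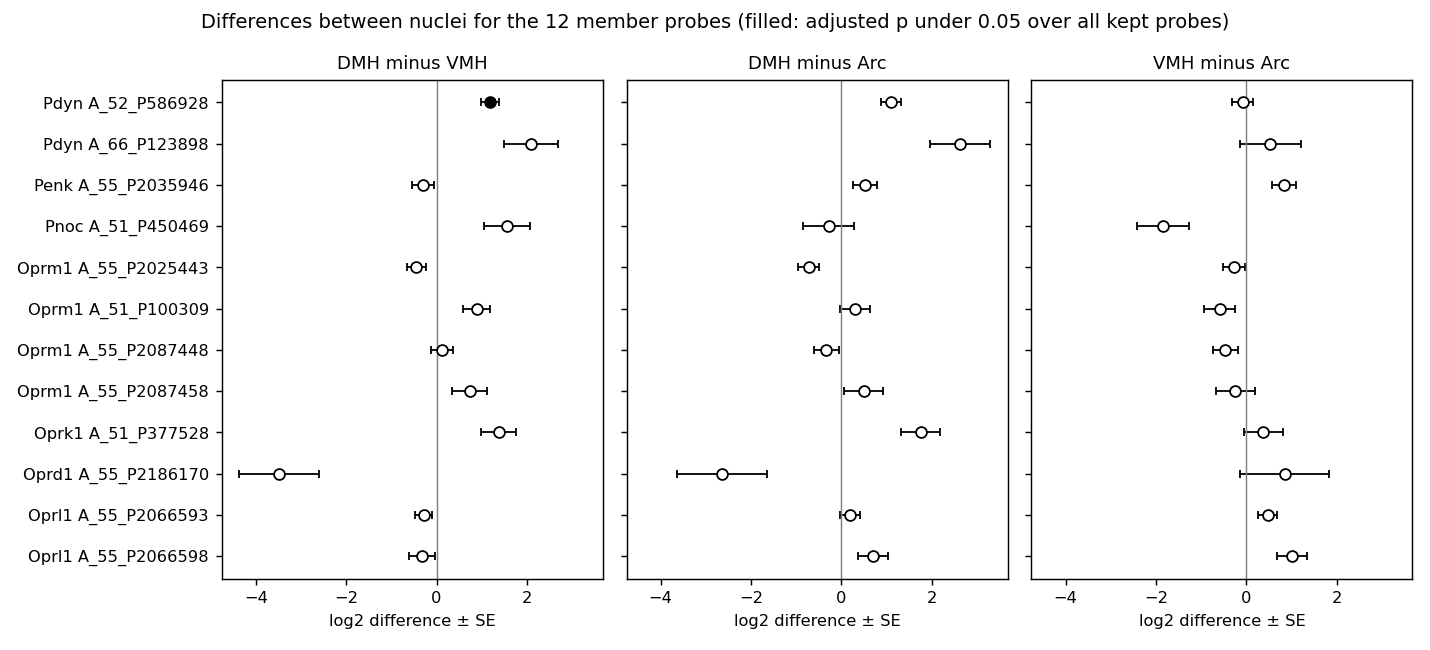
Differences between nuclei on the log2 scale (x axis, with SE) for the 12 probes of the 7 genes (y axis) in the 3 pairs of nuclei, filled where the adjusted p over all kept probes was under 0.05. The Pdyn probe A_52_P586928 in DMH minus VMH is the filled point, and the Oprm1 repeat and coding probes lie on opposite sides of 0 there.

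Across the gene-level probes, the arrays of DMH and VMH did not overlap for 3 of 7 genes with DMH higher (Pdyn, Pnoc and Oprk1), beside 9.19% of all genes, and for 3 of 7 with DMH lower (Oprd1, Oprl1 and the Oprm1 repeat probe), beside 12.5%. For DMH against Arc these counts were 3 of 7 higher (Pdyn, Penk and Oprk1), beside 13.6%, and 2 of 7 lower (Oprd1 and the Oprm1 repeat probe), beside 19.8%. For VMH against Arc they were 2 of 7 higher (Penk and Oprl1), beside 16.5%, and 2 of 7 lower (Pnoc and the Oprm1 repeat probe), beside 18.5%. With Oprm1 at its repeat probe, the median difference of the 7 genes was -0.28 for DMH minus VMH, 0.19 for DMH minus Arc and 0.38 for VMH minus Arc, against -0.04, -0.05 and -0.03 for all genes. The sign of the DMH minus VMH median rested on that probe. The repeat probe gave -0.45 there and the coding probe 0.89, and with the coding probe the median is positive.

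The genes whose levels followed each member most closely over the 8 arrays are named from 14278 genes well above background on all arrays, by Pearson's r and as a description, since arrays of a nucleus share their source. For Pdyn they were Fhl2 (r = 0.990), Gm10415 and Kctd12 (both 0.988). Fhl2, a LIM-domain protein, read 0.13, -0.54 and -0.36 in DMH, -1.91, -2.03 and -2.18 in VMH and -1.59 and -1.83 in Arc. Kctd12, an auxiliary subunit of GABA-B receptors, read 1.40, 0.12 and 0.35 in DMH, -2.17, -2.70 and -2.34 in VMH and -2.15 and -2.27 in Arc. In both, DMH lay above the other nuclei on every array.
For Penk the closest were Uvrag (0.964), P4htm and Ppargc1b (both 0.962), and for Pnoc Tor3a (0.984), Pgf (0.968) and Rpl15 (0.965). Oprk1 was closest to Zfp961 and Usp4 (both 0.983) and Pgd (0.973), and Oprl1 to Cyb5b (0.979) and Gpatch4 (0.975). The Oprm1 coding probe was closest to Psd3 (0.964), Sh3bgr (0.958) and H13 (0.943). The Oprm1 repeat probe was closest to Cnnm3 (0.997), Pdzrn3 (0.995) and Gm4425 (0.994), and the probes of Pdzrn3 and Gm4425 hold such a run as well. Oprd1 was left out because 1 array was not well above background.

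The machinery around the receptors was followed in lists of genes for peptide processing, breakdown, G proteins, effectors and receptor regulation. Of the 12 precursor-processing genes, such as the convertases Pcsk1 and Pcsk2, 0 passed in limma in any pair of nuclei, and 2, 1 and 2 had an unadjusted p under 0.05 for DMH against VMH, DMH against Arc and VMH against Arc, beside the 13.2%, 16.6% and 14.2% of all genes. Pcsk2, which takes part in cutting the opioid precursors, averaged 3.24 in DMH, 3.97 in VMH and 2.94 in Arc, and VMH minus Arc was 1.03 with an adjusted p of 0.194 in limma. Of the 15 measured effector genes (potassium channels, adenylyl cyclases and calcium channels) and the 10 measured genes of receptor regulation (arrestins, receptor kinases and chaperones), 0 passed in limma. In the same order of pairs, 7, 3 and 4 effector genes and 0, 0 and 1 genes of receptor regulation had an unadjusted p under 0.05, to be read against the same shares of all genes. Kcnj5, a subunit of inwardly rectifying potassium channels, averaged -1.34 in DMH, -0.68 in VMH and -2.00 in Arc, and its VMH minus Arc difference of 1.32 had an adjusted p of 0.0662.

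Of the 11 measured genes of peptide breakdown, 1 passed, higher in VMH than in Arc, where 0.66% of all genes were called higher in VMH. At an unadjusted p under 0.05 there were 4, 2 and 2 of the 11 in the same order of pairs, beside 13.2%, 16.6% and 14.2% of all genes. Anpep, aminopeptidase N, which removes the first residue of enkephalins, read -2.34, -2.32 and -2.92 in DMH, -1.97, -1.69 and -1.32 in VMH and -4.30 and -3.82 in Arc. All VMH arrays lay above all DMH arrays and these above both Arc arrays, of which Arc replicate 1 was not well above background. VMH minus Arc was 2.40 ± 0.30 (SE), with an adjusted p of 0.0152 in limma, and without Arc replicate 1, VMH replicate 2 or VMH replicate 3 the adjusted p was 0.0729, 0.0549 and 0.0608. The call was also lost in a fit of the pair alone (adjusted p of 0.0607), with the replicate block (0.0744) and for a fold of at least 2 (0.228), and with the normexp correction the difference was 1.30.

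Of the 20 G protein and RGS genes, 1 was lower in DMH than in VMH, beside 0.788% of all genes, and 2 were higher in VMH than in Arc, beside 0.66%. At an unadjusted p under 0.05 there were 7, 3 and 7 of the 20 in the same order of pairs, beside 13.2%, 16.6% and 14.2% of all genes. RGS proteins speed up the hydrolysis of GTP by G protein alpha subunits and so shorten receptor signals. Rgs14 read -0.98, -2.10 and -1.66 in DMH, 0.47, 0.89 and 0.62 in VMH and -1.31 and -1.74 in Arc. VMH lay above both other nuclei on every array. The difference of DMH minus VMH was -2.24 ± 0.31 (SE, adjusted p of 0.0201 in limma), and VMH minus Arc was 2.18 ± 0.35 (adjusted p of 0.0369). Rgs7 read -1.64, -2.46 and -2.53 in DMH, 0.33, -0.45 and -1.07 in VMH and -2.94 and -3.37 in Arc. VMH minus Arc was 2.76 ± 0.45 (SE, adjusted p of 0.0398 in limma), and DMH minus VMH was -1.82 ± 0.40 (adjusted p of 0.0955). With single arrays left out, Rgs14 in DMH against VMH lost its call without DMH replicate 2 or 3 or any VMH array (adjusted p of 0.0587 to 0.0821), and in VMH against Arc without DMH replicate 3 or any VMH or Arc array (0.0733 to 0.139). Rgs7 lost its call without DMH replicate 2 or 3 or any VMH or Arc array (0.0523 to 0.146). The slide row as a block ended all 3 calls (0.0566 and 0.0764 for Rgs14 in DMH against VMH and VMH against Arc, 0.074 for Rgs7), as did a fold of at least 2 (0.384, 0.654 and 0.428), and the replicate block ended both Rgs14 calls (0.0602 and 0.106). In VMH against Arc, Rgs14 and Rgs7 also lost their calls in a fit of the pair alone (0.0567 and 0.0936) and when dim probes were kept in (0.0646 and 0.0687), in limma throughout. Rgs20, the 1 list gene whose probe holds a repeat run, read between 7.10 and 8.09 on all arrays.

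Pomc, whose product is cut into beta-endorphin as well as melanocortins, stood in a list of further genes named for or related to opioids. It was also a marker of the Arc list above, so its differences from Arc are not separate from that count. It read 0.40, 0.73 and 0.83 in DMH, 1.47, -0.23 and 0.77 in VMH and 6.44 and 6.11 in Arc. DMH minus Arc was -5.62 ± 0.45 (SE, adjusted p of 0.00573 in limma) and VMH minus Arc was -5.61 ± 0.45 (adjusted p of 0.00301). Ogfr, Ogfrl1 and Opcml of this list did not pass in any pair. Among the opioid precursors on the array, Pomc was lower in DMH and VMH than in Arc, Pdyn was higher in DMH than in VMH, and Penk and Pnoc did not pass in any pair.

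**Figure D5:**
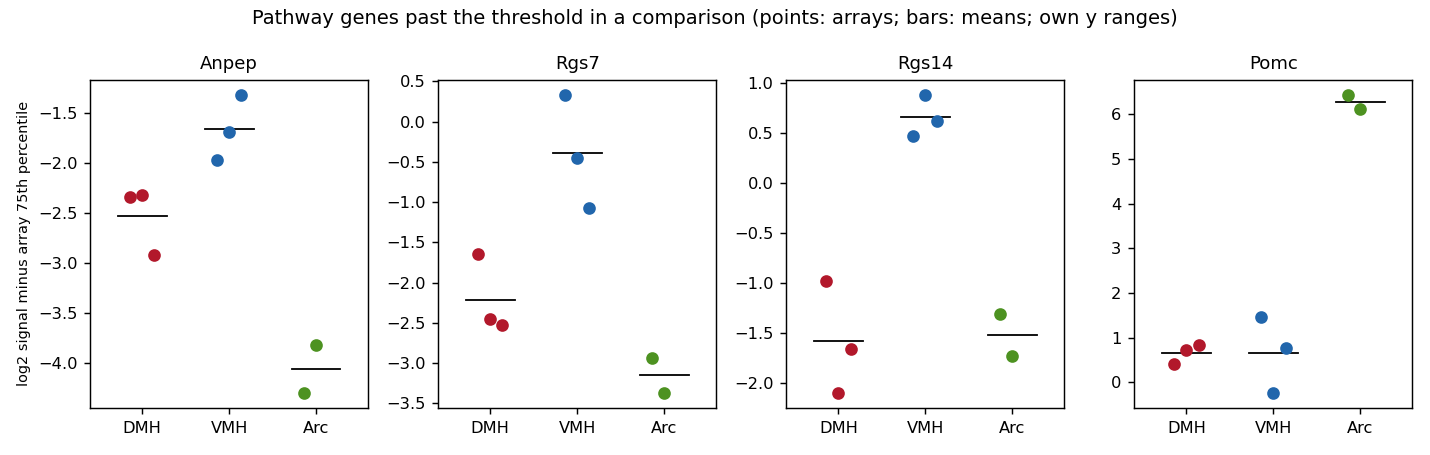
Log2 signal minus the array's 75th percentile (y axis) of Anpep, Rgs7, Rgs14 and Pomc in DMH, VMH and Arc (x axis), with a point per array and a bar for the mean. VMH lies highest for Anpep, Rgs7 and Rgs14, and both Arc arrays lie highest for Pomc.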

How the data were processed

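The spot intensities of the red channel were deposited by the authors as background-subtracted processed signals of Agilent Feature Extraction 11.5.1.1 on mm9 probe positions, per the file headers; the labels give Cy5 as the dye. Flags for detection, saturation and outlier spots were taken as deposited. All 8 arrays came from 1 slide and 1 scan. The authors' deposited value table of the series was not used, because its columns run in constant steps after the first rows and it may be damaged.

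From the deposited intensities, log2 minus the 75th percentile of the non-control spots of each array was computed, outlier spots were left out, and spots of a probe were averaged (59305 spots, 55681 probes). Kept were 41478 probes that every array of 1 or more nuclei detected well above background, and the brightest stood for each gene name (27424 genes, 16360 with a RefSeq symbol of assembly GRCm38.p6). The 8 arrays were fitted with 1 mean for each nucleus in limma 3.58.1 and R 4.3.3 (lmFit, eBayes, 5 residual degrees of freedom, prior of 2.78, median residual SD of 0.355), with Benjamini-Hochberg adjustment over all genes within a contrast and a threshold of 0.05. The number of arrays limits the precision. The fit was also run on simulated arrays, from which no result is used here. The genes named are all members with all their probes, up to 4 genes past the threshold per list, and the 3 closest genes by Pearson's r, except that some results are not reported here. Members, lists and tests were chosen with earlier results of these data known.

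Alternatives were normexp background correction with an offset of 50, quantile normalization, scaling to the median or to probes that all arrays detected, a floor or another filter for dim probes, every probe on its own or averaged per gene, trended or robust eBayes, array weights, fits of single pairs, a block for replicate number or slide row, a fold minimum of 2, and leaving out single arrays. Leaving out probes with a repeat run was chosen after seeing the data.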

Additional observations from a re-analysis of the deposited data

How the results depend on the processing

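Replicate numbers are shared between the nuclei, but the labels do not say what they mean. After removing the nucleus means, same-numbered arrays correlated at 0.0735 to 0.188 over genes and other pairs at -0.128 to 0.0173, and all 8 arrays correlated best with an array of their own number, which is a hint from the data only. Removing the means ties the arrays of a nucleus to each other, so these are not 8 separate observations. DMH replicate 1, for example, correlated at 0.0735 with Arc replicate 1 and at -0.0736 with Arc replicate 2. With the replicate block, 0 members were called for DMH against VMH (Pdyn 1.18, adjusted p of 0.0605 in limma) and 0 by the F test, and the counts of all genes were 163, 32 and 74 for DMH against VMH, DMH against Arc and VMH against Arc and 171 by the F test, against 337, 115, 268 and 472 without it. The block also ended the calls of Rgs14 (adjusted p of 0.0602 for DMH against VMH and 0.106 for VMH against Arc) and of Anpep (0.0744), and changed no other call of the members or of these list genes.

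For DMH against VMH, 1 member was called as reported, 2 (Pdyn and Oprd1) with normexp or with a floor, and 0 with no filter on dim probes, the mean of a gene's probes, a fit of the pair alone, a block for the slide row or a fold of at least 2. For DMH against Arc, 0 were called as reported and 1 (Pdyn) with normexp and with a trend. For VMH against Arc the count was 0 under all alternatives. The F test called 1 member as reported, 2 with normexp, and 0 with median scaling, no filter, the mean of a gene's probes, a block for the slide row or every probe on its own. With each array left out in turn, the count was 0 each time for DMH against VMH and for the F test, while Pdyn in DMH minus VMH kept its direction under all alternatives run (1.06 to 1.63). The cause of the lost calls was not tested. The adjusted p of Pdyn in DMH against VMH ranged from 0.00959 with a trend to 1 with a fold of at least 2.

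Directions turned in these cases, none of them called. Oprm1 in DMH minus VMH was 0.32 with the mean of its probes and 0.89 without repeat probes, and in DMH minus Arc 0.29 without repeat probes. Pdyn in VMH minus Arc was 0.22 with the mean of its probes. With arrays left out, Pdyn A_66_P123898 in VMH minus Arc ranged from -0.039 to 1.15, Oprm1 A_55_P2087448 in DMH minus VMH from -0.0091 to 0.23 and Oprm1 A_55_P2087458 in VMH minus Arc from -0.64 to 0.16.

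Counts of all genes that moved by over 1.5 times were, for DMH against VMH, 200 with no filter, 167 with the slide row and 51 with a fold of at least 2. For DMH against Arc they were 234 with normexp, 41 with no filter, 181 with a floor, 207 with the mean of probes, 233 with a trend, 43 with array weights, 46 for the pair alone, 58 with the slide row, 16 with a fold of at least 2 and 180 for single probes. For VMH against Arc they were 408 with normexp, 164 with no filter, 403 with a trend, 72 for the pair alone, 164 with the slide row and 39 with a fold of at least 2. For the F test they were 728 with normexp, 262 with no filter, 747 with a trend and 231 with the slide row. Without single arrays these counts ranged from 108 to 330, 36 to 128, 87 to 266 and 140 to 408. Signal close to background limits the precision for Oprd1. The median of all genes moved by under 0.1 under every scaling.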
